A study of Rattus norvegicus with 3 samples.

Results

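A set of 7 genes of enamel matrix secretion was followed over 3 stages of the rat enamel organ. They comprise the matrix genes Ambn (ameloblastin) and Enam (enamelin), Tuft1 (tuftelin), the secretory-stage protease Mmp20, and the enamel genes Fam20a, Fam20c and Fam83h. All 7 were found by symbol among the 16516 genes of the deposited comparison table, and none was lost to a filter on low values. Enamel organs of 5 Wistar Hannover rats were dissected into maturation ameloblasts, secretory ameloblasts and the cells of the cervical loop, with no genetic change or treatment named. Per the labels, the cervical loop RNA of rat 1 was left out for an integrity number below 7, and each library was sequenced to 25000000 reads, single-end, of 75 bases. Each stage is held as 1 mean per gene, so no standard deviation stands beside a mean, and the spread between libraries enters only through the deposited p-values.

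Ameloblasts are epithelial cells that line the forming enamel. In the secretory stage they export a protein matrix, in which amelogenin is the most abundant protein and ameloblastin and enamelin take part in the first mineral ribbons at the mineralisation front. Matrix metalloproteinase 20 (enamelysin) cleaves these proteins soon after secretion, and kallikrein 4 (Klk4) removes the remains during maturation. Fam20c is the Golgi kinase that phosphorylates secreted proteins on serines of the Ser-x-Glu motif, and the matrix proteins are among its targets. Fam20a is a pseudokinase that binds Fam20c and raises its activity. Fam83h is not secreted: it binds casein kinase 1 in the cytosol and affects the keratin network. In humans, inherited changes in AMBN, ENAM, MMP20, FAM20A, FAM83H and FAM20C disturb enamel.

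The stage labels were checked against marker genes listed for each cell type. The 7 markers of ameloblasts and enamel epithelium summed to 3804 in the cervical loop, 113030 in the secretory stage and 8488 in maturation, in units of the authors' means. Ambn, Enam and Amelx made up most of the secretory sum, and the other 4 markers (Cdh1, Epcam, Krt5 and Krt14) summed to 925, 1393 and 2941. That smaller sum was carried mostly by Krt5 and Krt14, which were both highest in maturation. Cdh1 stood at 171, 215 and 107 in the same stage order, and Epcam at 37.0, 13.8 and 20.3. The secretory label was thus checked only through matrix genes, of which Ambn and Enam are described here. Markers of other cells were present in every stage. Odontoblast and bone markers, 9 of 9 measured, summed to 8022, 7302 and 9057 in the same stage order, carried mostly by Col1a1 and Col1a2, and Dspp was at the floor (a mean of 0.1 or less) in maturation only. Mesenchyme and fibroblast markers, 8 of 8 measured, summed to 2712, 3585 and 5465, with Col3a1 the largest part at 1246, 2547 and 3826. Pdgfra, Vim and Twist1 were highest in the cervical loop, and the other markers of this list in maturation. Myeloid markers, 6 of 6, summed to 215, 180.3 and 651, and endothelial markers, 4 of 5, to 88.1, 107 and 155. Stratum intermedium markers, 5 of 5, summed to 301, 552 and 600.5, of which Alpl held most at 153, 324 and 491. Only Alpl and Cldn10 of this list were highest in maturation. No marker of these last 4 lists was at the floor in any stage. In bulk tissue, fewer cells of a type and less RNA per cell cannot be told apart.

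Upstream sequence is shown for the 6 genes with an entry in the promoter table, because Ambn, Enam, Mmp20, Fam20a and Fam20c all rose and then fell over the stages, while Tuft1 rose at both steps. Each line gives the 120 bases before the gene start on the gene's own strand, from RefSeq, build GRCr8. The files use build rn6, so no value was joined by position. Capitals mark CCAAT in either orientation (its reverse complement reads ATTGG), the motif TATAAA and also the motif GGGCGG. Positions are chr14:19898423-19898542 (minus strand) for Ambn, chr14:19865477-19865596 (minus) for Enam, chr8:13074159-13074278 (plus) for Mmp20, chr10:95197054-95197173 (minus) for Fam20a, chr12:20998319-20998438 (minus) for Fam20c and chr2:184995195-184995314 (minus) for Tuft1.
Ambn: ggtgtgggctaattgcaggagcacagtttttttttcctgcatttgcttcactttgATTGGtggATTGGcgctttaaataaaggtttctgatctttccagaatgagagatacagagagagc
Enam: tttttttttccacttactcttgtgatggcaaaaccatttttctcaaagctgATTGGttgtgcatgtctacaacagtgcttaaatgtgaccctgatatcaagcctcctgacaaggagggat
Mmp20: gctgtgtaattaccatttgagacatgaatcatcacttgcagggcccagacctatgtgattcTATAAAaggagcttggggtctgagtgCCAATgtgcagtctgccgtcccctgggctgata
Fam20a: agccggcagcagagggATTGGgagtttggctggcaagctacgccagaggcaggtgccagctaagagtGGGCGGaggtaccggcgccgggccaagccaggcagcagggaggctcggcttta
Fam20c: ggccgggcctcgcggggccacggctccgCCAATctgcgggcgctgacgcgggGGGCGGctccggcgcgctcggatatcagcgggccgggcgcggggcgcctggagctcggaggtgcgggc
Tuft1: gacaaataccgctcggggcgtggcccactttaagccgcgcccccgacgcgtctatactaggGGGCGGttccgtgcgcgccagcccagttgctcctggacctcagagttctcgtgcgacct

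The motifs, 5 in all, were searched on both strands in the 250 bases before each start. Matches of TAATTG could share bases with an inverted CCAAT, and none did in these 6 genes. CCAAT was held by 5 of the 6 genes, against 34.0% of 33469 promoter windows of the same length. Ambn held it 2 times in inverted form, with first bases 65 and 57 before the start, and Enam 1 time in inverted form at 69. Amelx, the amelogenin gene, held inverted copies at 59 and 27, and TATAAA at 32. Mmp20 was the only one of the 6 with TATAAA, at 59 before the start, where 12.9% of windows held it. GGGCGG was in Fam20a, Fam20c and Tuft1 but not in Ambn, Enam or Mmp20, against 30.5% of windows. TAATTG was in Ambn alone (7.31% of windows) and TGTGGT in none of the 6 (14.5% of windows). The same division appeared in base composition: the 250 bases were 44.4% G and C in Ambn, 39.2% in Enam and 46.0% in Mmp20, against 62.0% in Fam20a, 81.6% in Fam20c, 60.8% in Tuft1 and a median of 51.2% over all windows. These matches describe letters in a window and were not tied to binding of any factor.

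All 7 genes rose in secretory cells against the cervical loop, at a false discovery rate (FDR) under 0.05 over all genes, where 16.5% of all genes were called higher and 25.2% lower. In maturation against secretory cells 5 of 7 fell and 2 of 7 rose, where 21.1% of all genes were called lower and 21.8% higher. For maturation against cervical loop 3 of 7 rose and 4 did not pass, beside 24.1% of all genes called higher and 33.7% lower. The median log2 ratio of the 7 was 2.41, -1.96 and 0.81 in these pairs, and that of all genes was -0.14, 0.00462 and -0.12. The genes were chosen with earlier results known, so these counts describe them and set nothing apart. Maturation-against-secretory calls of Ambn and Mmp20, and the maturation-against-cervical-loop call of Ambn, do not hold at a threshold of 0.01. The enamel matrix and protease list, 8 of 10 measured, had 6 higher and 2 not passed for secretory over cervical loop, 4 higher and 4 lower for maturation over secretory, and 5 higher and 3 not passed for maturation over cervical loop, with median log2 ratios of 3.99, -0.96 and 2.21. Without the 4 members of the set of 7, the 4 that are left (Amelx, Amtn, Odam and Klk4) had 2 higher, then 3 higher and 1 lower, then 3 higher. Marker lists were counted in secretory against cervical loop and then in maturation against secretory. Ameloblast and epithelial markers, Ambn and Enam among them, gave 5 higher and 1 lower, then 3 higher and 3 lower. The 3 lower were Ambn, Enam and Amelx. The 4 markers left without them gave 2 higher and 1 lower, then 3 higher and 0 lower. For maturation against cervical loop those 4 gave 2 higher and 1 lower. Of the mesenchyme markers 1 was higher and 2 lower, then 4 higher and 0 lower. For myeloid markers these counts were 0 and 0, then 5 higher and 0 lower. Stratum intermedium gave 3 and 0, then 2 higher and 3 lower, and endothelium 0 and 0, then 1 higher and 0 lower. In maturation against cervical loop cells, 5 of 6 myeloid, 4 of 8 mesenchyme, 3 of 4 endothelial, 2 of 5 stratum intermedium, 3 of 7 ameloblast and 0 of 9 odontoblast and bone markers were higher. Ambn, Tuft1 and Fam83h were the 3 of the 7 called higher in that pair, and the part of these cells in their values was not tested.

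The genes for the secreted matrix proteins peaked sharply in the secretory stage. Ambn stood at 1306 in the cervical loop, 61048 in the secretory stage and 5251 in maturation. Its secretory mean was 9.97% of the sum of all means of that stage, with 0.299% in cervical loop cells and 1.08% in maturation cells. Enam stood at 419.5, 13468 and 80.0 in the same order of stages. The secretory mean was the highest of the 3 for both genes, but the lowest stage was the cervical loop for Ambn and maturation for Enam.

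Secretory ameloblasts held 46.7 times the Ambn of cervical loop cells (FDR = 0.00195 by the authors' deposited table). For Enam the ratio was 32.1 (FDR = 0.00314 by the authors' deposited table). In maturation, Ambn fell to 5251, against 61048 in secretory cells, an 11.6-fold lower mean (FDR = 0.0185 by the authors' deposited table). Enam was 168-fold lower (FDR = 0.00137 by the authors' deposited table). Both genes therefore passed in each of these pairs, both higher in the first pair and both lower in the second.

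Maturation against cervical loop separated the matrix genes. Ambn was still 4.02-fold higher in maturation (FDR = 0.0121 by the authors' deposited table). Enam stood at 80.0 in maturation, against 419.5 in the cervical loop, and did not pass (FDR = 0.291 by the authors' deposited table). The number of Ambn units per Enam unit was 3.11 in the cervical loop, 4.53 in the secretory stage and 65.6 in maturation, 14.5 times as high in maturation as in secretory cells. Whether the fall of Ambn differed from that of Enam was not tested, since no values per library are held here.

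Mmp20, which encodes the protease that acts on this matrix, had the course of the matrix genes. Its mean was 41.9 in the cervical loop, 1239 in secretory ameloblasts and 73.7 in maturation. Secretory cells were 29.6-fold above the cervical loop (FDR = 0.00341 by the authors' deposited table). Maturation cells were 16.8-fold below secretory cells (FDR = 0.0104 by the authors' deposited table). At 73.7 in maturation, against 41.9 in the cervical loop, the gene did not pass (FDR = 0.104 by the authors' deposited table). Ambn relative to Mmp20 was 31.2, 49.3 and 71.3 in stage order, a far smaller shift than that of Ambn relative to Enam. The later protease gene Klk4 ran the other way and was highest in maturation, at 142, against 19.3 in secretory cells (FDR = 0.014 by the authors' deposited table).

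**Figure D1:**
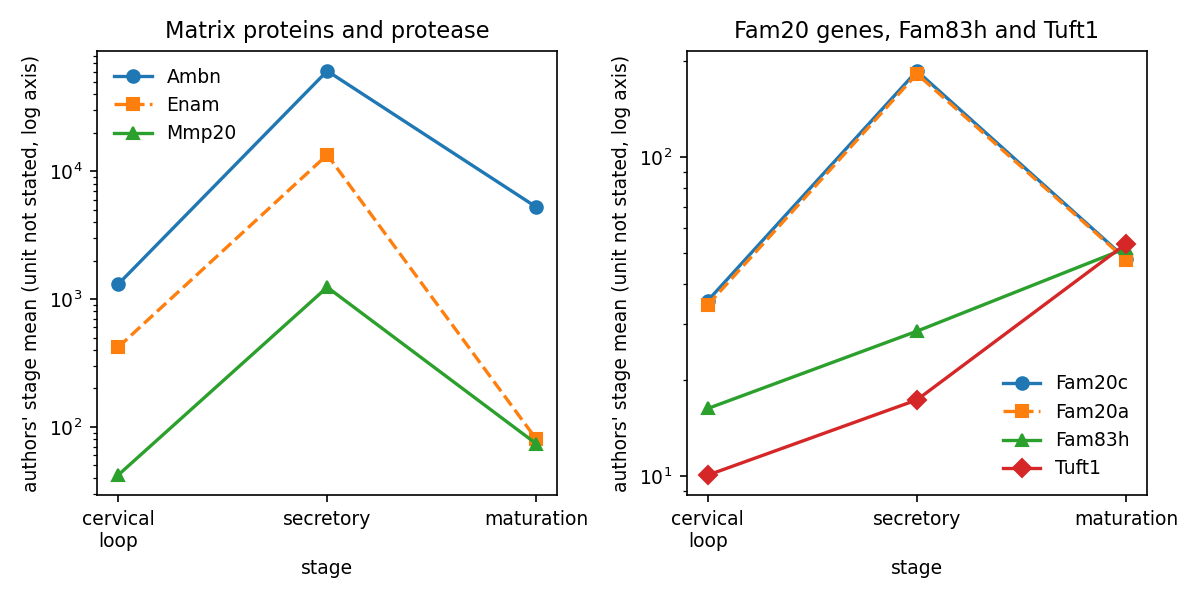
The authors' stage means (log axis, unit not stated) of the 7 genes in cervical loop, secretory and maturation samples, 1 mean per point and no error bar. Ambn, Enam, Mmp20, Fam20a and Fam20c are highest in the secretory stage, with Ambn at 61048, while Tuft1 (53.5) and Fam83h (51.9) are highest in maturation.

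Both Fam20 genes of the phosphorylation machinery peaked with the matrix genes, on a smaller scale. Fam20c stood at 35.5 in the cervical loop, 187 in the secretory stage and 48.1 in maturation. Its pseudokinase partner Fam20a stood at 34.4, 183 and 47.7. The mean of Fam20a relative to that of Fam20c was 0.970, 0.979 and 0.992 in the 3 stages, so that this ratio moved little between stages.

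In secretory cells Fam20c was 5.25-fold higher than in the cervical loop (FDR = 0.000603 by the authors' deposited table). Fam20a was 5.3-fold higher (FDR = 0.000979 by the authors' deposited table). Maturation cells had 3.88-fold less Fam20c than secretory cells (FDR = 0.000712 by the authors' deposited table). The same pair gave 3.83-fold less Fam20a (FDR = 0.00151 by the authors' deposited table). Between maturation and cervical loop neither gene passed, with a ratio of 1.35 for Fam20c (FDR = 0.0578 by the authors' deposited table) and 1.39 for Fam20a (FDR = 0.0904 by the authors' deposited table). Fam20c is also known from odontoblasts and bone cells, and beside it 0 of 9 odontoblast and bone markers passed for secretory against cervical loop, with a median log2 ratio of -1.26. For maturation against secretory 1 of these 9 passed, Dspp, which was lower. The part of such cells in the Fam20c values was not tested.

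Fam83h and Tuft1 followed a different order and were highest in maturation. Fam83h stood at 16.3, 28.5 and 51.9 in the cervical loop, secretory and maturation stages. Secretory cells were 1.75-fold above the cervical loop (FDR = 0.00823 by the authors' deposited table). Maturation cells were a further 1.82-fold above secretory cells (FDR = 0.00475 by the authors' deposited table), and 3.18-fold above the cervical loop (FDR = 0.000303 by the authors' deposited table). Fam83h thus passed at each step.

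Tuft1, first described as an acidic enamel protein and also expressed outside teeth, stood at 10.1, 17.4 and 53.5. It was 1.72-fold higher in secretory cells than in the cervical loop (FDR = 0.00322 by the authors' deposited table). Its larger step came later, 3.08-fold higher in maturation than secretory cells (FDR = 0.000288 by the authors' deposited table). Maturation cells had 5.31 times the Tuft1 of cervical loop cells (FDR = 7.13e-05 by the authors' deposited table). The myeloid, mesenchyme and endothelial sums given above were also highest in maturation, and their part in the values of Tuft1 and Fam83h was not tested.

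**Figure D2:**
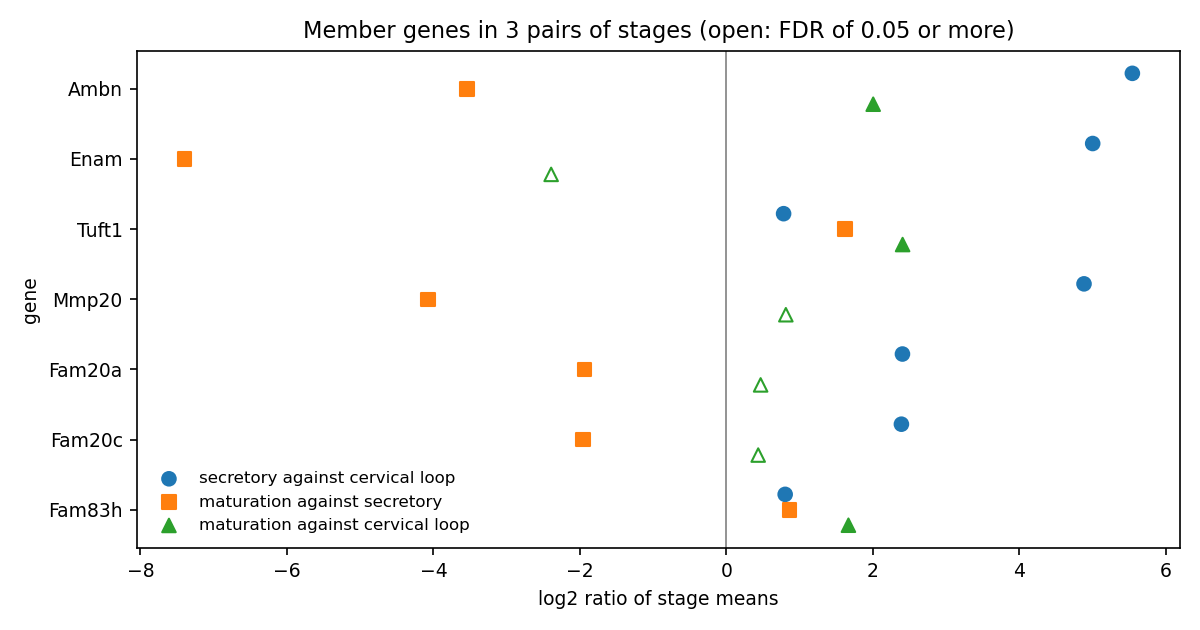
Log2 ratio of stage means for each of the 7 genes in 3 pairs of stages, with filled symbols where the FDR was under 0.05 and open symbols where it was not. All 7 circles (secretory against cervical loop) are filled and above 0, and 4 of the 7 triangles (maturation against cervical loop) are open.

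The size of each difference against the spread between libraries was read back from the p-values. In a model with 1 residual variance per gene, the p-values of the 3 pairs fix one another. They came closest to this with 6 residual degrees of freedom and the standard errors of a model without the rats. There the median mismatch over all genes was 0.483% and the largest among the 7 was 1.04%. Such a model of 13 libraries in 3 stages would itself leave 10, at which the median mismatch was 7.41%. One that also holds the 5 rats as blocks would leave 6, at which the mismatch was 1.27% if different rats lack the cervical loop and secretory libraries and 3.91% if the same rat lacks both. The closest fit thus joins the standard errors of 1 layout to the degrees of freedom of another. The model used is not given in the sources used here. At 6 degrees of freedom the secretory-against-cervical-loop difference was 12.5 times its standard error for Fam20c and 10.2 times for Fam20a. For Ambn it was 8.03 times, for Enam 6.94 and for Mmp20 6.76. Tuft1 gave 6.88 and Fam83h 5.28 in the same pair. These multiples do not follow the folds of the deposited means. For Ambn, maturation against secretory had a log2 ratio of -3.54 and a multiple of 4.18. Its maturation against cervical loop had a log2 ratio of 2.01 and a multiple of 4.3. The scale on which the p-values were computed is not given, so multiples and folds cannot be set against each other. The largest value of all was that of Tuft1 for maturation against cervical loop, 22.3 times its standard error.

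Isoforms could be followed for 2 of the 7 genes, Tuft1 and Fam83h, which have transcripts in the deposited isoform tables (fitted apart from the gene table, 1 pair of stages at a time). Of their 5 transcripts, 2 rose in secretory against cervical loop cells, 2 in maturation against secretory cells, and 5 in maturation against cervical loop cells. Among all 9949 transcripts 7.63%, 7.87% and 10.7% were called higher in the same pairs. A change in isoform make-up was called for 1.19%, 1.80% and 2.79% of the genes in these tables. Shares are of summed means whose unit is not stated to be per length. Tuft1-201 had means of 12.7 in secretory and 6.73 in cervical loop cells, or 73.3% and 65.0% of the Tuft1 transcript sum. Tuft1-203 stood at 3.01 and 1.85, and Tuft1-202 at 1.62 and 1.77, in the same 2 stages. None of the 3 passed for this pair (FDR = 0.5, 0.575 and 0.504 for Tuft1-201, Tuft1-203 and Tuft1-202 by the authors' deposited table of transcripts), although the gene as a whole did.

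In maturation Tuft1-202 had the largest ratio to secretory cells, 4.41, from 7.32 in maturation against 1.66 in secretory cells (FDR = 0.00443 by the authors' deposited table of transcripts). Tuft1-203 stood at 10.5 in maturation, against 3.04 in secretory cells (FDR = 0.0751 by the authors' deposited table of transcripts). Tuft1-201 stood at 36.2, against 12.7 (FDR = 0.147 by the authors' deposited table of transcripts). Against the cervical loop all 3 were higher in maturation, 5.46-fold for Tuft1-201, 4.36-fold for Tuft1-202 and 6-fold for Tuft1-203, with FDR = 1.72e-06, 6.99e-06 and 7.72e-07 by the authors' deposited table of transcripts. No change in isoform make-up passed for Tuft1 in any pair (FDR = 0.695 in secretory and 0.804 in maturation cells, each against the cervical loop, and 0.748 between maturation and secretory cells by the authors' deposited table of transcripts).

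Both Fam83h transcripts rose in secretory cells against the cervical loop, and 1 of them passed again in maturation against secretory cells. Fam83h-201 stood at 17.5 in secretory and 9.96 in cervical loop cells (1.76-fold higher, FDR = 0.0131 by the authors' deposited table of transcripts). Fam83h-202 stood at 10.9 and 7.55 in these stages (1.44-fold higher, FDR = 0.0434 by the authors' deposited table of transcripts). From there Fam83h-202 stood at 25.4 in maturation, against 11.0 in secretory cells, 2.31-fold higher (FDR = 0.0056 by the authors' deposited table of transcripts). Fam83h-201 stood at 27.0, against 17.5, and did not pass (FDR = 0.0783 by the authors' deposited table of transcripts). Its share of the Fam83h transcript sum was 51.5% in maturation and 61.4% in secretory cells. Against the cervical loop both passed, at 2.91-fold for Fam83h-201 and 3.7-fold for Fam83h-202 (FDR = 0.000694 and 0.000245 by the authors' deposited table of transcripts). The isoform make-up of Fam83h did not pass in any pair (FDR = 0.811 in secretory and 0.809 in maturation cells, each against the cervical loop, and 0.62 between maturation and secretory cells by the authors' deposited table of transcripts).

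**Figure D3:**
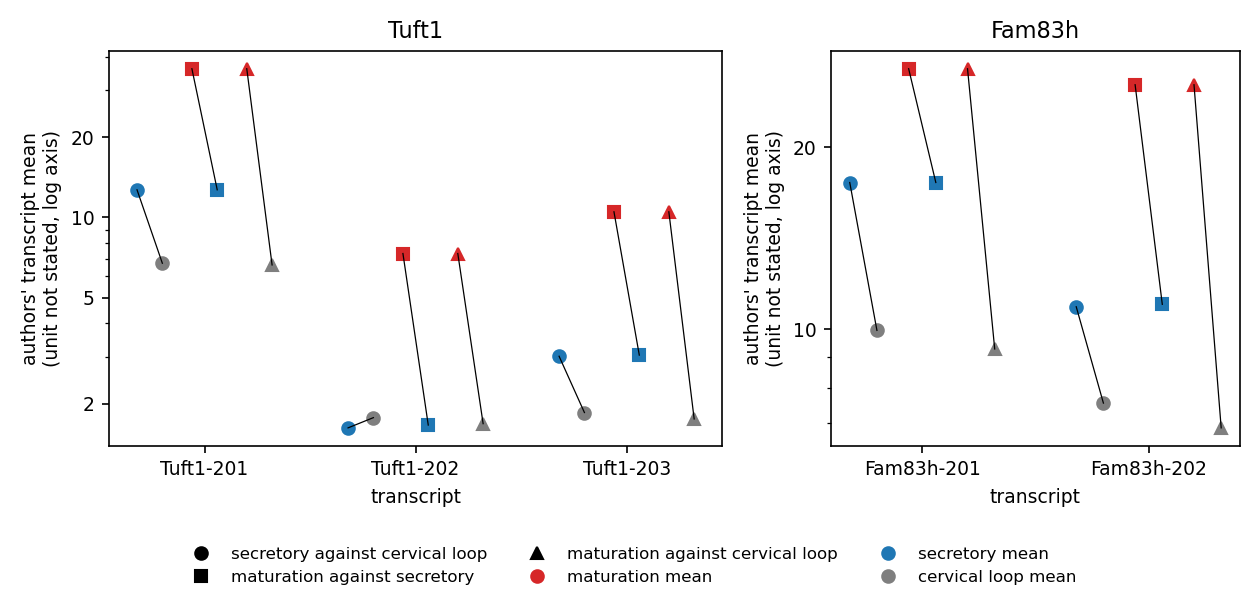
Authors' transcript means (log axis, unit not stated) of Tuft1 and Fam83h, with a line joining the 2 stages of each separately fitted pair and symbols naming the pair. Maturation means lie highest for every transcript, at 36.2 for Tuft1-201 and 27.0 for Fam83h-201.

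Relatives of Fam20a and Fam20c did not all share their course. Of 18 listed symbols of kinases in the secretory pathway, older and newer names included, 11 were measured, among them Fam20a and Fam20c. For secretory against cervical loop 5 rose, 5 fell and 1 did not pass, with a median log2 ratio of 0.46. Over all genes 16.5% were called higher and 25.2% lower in this pair. Without Fam20a and Fam20c, 3 of 9 rose and 5 fell, with a median of -0.44. Fam20b, the Fam20 family member that phosphorylates xylose in proteoglycan linkers, stood at 101 in secretory cells, against 49.7 in the cervical loop (2.04-fold higher, FDR = 0.000424 by the authors' deposited table). Pomk, a kinase of O-mannose sugars, was 1.46-fold higher (FDR = 0.000708 by the authors' deposited table). Pkdcc, a secreted tyrosine kinase, was 1.53-fold lower (FDR = 0.00552 by the authors' deposited table), and Fjx1, related to the fly Golgi kinase four-jointed, 2.02-fold lower (FDR = 0.00832 by the authors' deposited table). Fam198b stood at 57.4, against 41.6, and did not pass (FDR = 0.0812 by the authors' deposited table).

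In maturation against secretory cells, 7 of these 11 fell, 1 rose and 3 did not pass, with a median log2 ratio of -0.68. With Fam20a and Fam20c left out, 5 of 9 fell and 1 rose, with a median of -0.66. Over all genes 21.1% were called lower and 21.8% higher. Fam20b was 1.6-fold lower (FDR = 0.000497 by the authors' deposited table), and Pomk 1.58-fold lower (FDR = 0.00028 by the authors' deposited table). Pkdcc and Fjx1, lower already in the secretory stage, were 2.55-fold and 4.24-fold lower again (FDR = 0.000341 and 0.000562 by the authors' deposited table). The gene that rose, Fam198a, had means under 1 in all stages. For maturation against cervical loop 1 rose, 4 fell and 6 did not pass, and Fam20b was the one that rose, 1.27-fold (FDR = 0.00428 by the authors' deposited table). Over all genes 24.1% were called higher and 33.7% lower there, so the share of the 11 kinases that fell is near that of all genes. With Fam20a and Fam20c left out, 4 of 9 fell and 1 rose in that pair. Units of Fam20c per unit of Fam20b were 0.715, 1.84 and 0.760 in stage order.

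The Fam83 genes and the partners of Fam83h were listed together. Among the 16 measured, 5 rose and 3 fell, with 8 not passed, for secretory against cervical loop. In maturation against secretory cells 3 rose, 8 fell and 5 did not pass. Maturation against cervical loop gave 5 higher, 5 lower and 6 that did not pass. Median log2 ratios were 0.10, -0.18 and -0.11 in these pairs. Over all genes 16.5% were called higher and 25.2% lower, then 21.8% and 21.1%, then 24.1% and 33.7%. The counts for maturation against cervical loop lie near these shares. Without Fam83h itself, 4 of 15 rose and 3 fell at the first step, and 2 rose and 8 fell at the second.

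Keratins 5 and 14, the basal-cell pair, moved in the order of Fam83h. Krt14 stood at 295, 542 and 1691 in the cervical loop, secretory and maturation stages, 1.84-fold higher in secretory than in cervical loop cells and 3.12-fold higher in maturation than secretory cells (FDR = 0.00172 and 0.000394 by the authors' deposited table). Krt5 stood at 422, 621 and 1122, with ratios of 1.47 and 1.81 (FDR = 0.00561 and 0.00116 by the authors' deposited table). Krt18, of simple epithelia, was 4.99-fold lower in secretory than in cervical loop cells (FDR = 0.00397 by the authors' deposited table). Among casein kinase 1 genes, Csnk1a1 stood at 158, 163 and 169 and passed in no pair (FDR = 0.634, 0.578 and 0.255 by the authors' deposited table). Csnk1d (72.2, 68.8 and 67.4) passed in none either, with FDR between 0.0656 and 0.556 by the authors' deposited table. Csnk1g2 passed in none as well, with FDR between 0.266 and 0.587 by the authors' deposited table. The other 3 were lower in maturation than in secretory cells, 1.36-fold for Csnk1e, 1.27-fold for Csnk1g1 and 1.44-fold for Csnk1g3 (FDR = 0.024, 0.0484 and 0.0268 by the authors' deposited table). Csnk1e was also 1.4-fold lower in maturation than in the cervical loop (FDR = 0.0132 by the authors' deposited table).

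No other measured Fam83 gene repeated the steady climb of Fam83h. Fam83g was 5.04-fold higher in secretory than in cervical loop cells (FDR = 0.0011 by the authors' deposited table) but 1.86-fold lower in maturation than in secretory cells (FDR = 0.022 by the authors' deposited table). Fam83b was lower at each step, 1.72-fold and then 2.76-fold (FDR = 0.0149 and 0.00124 by the authors' deposited table). Fam83d, known from the mitotic spindle, stood at 19.4 in secretory and 17.4 in cervical loop cells (FDR = 0.731 by the authors' deposited table), and was 11.5-fold lower in maturation than in secretory cells (FDR = 0.000375 by the authors' deposited table).

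**Figure D4:**
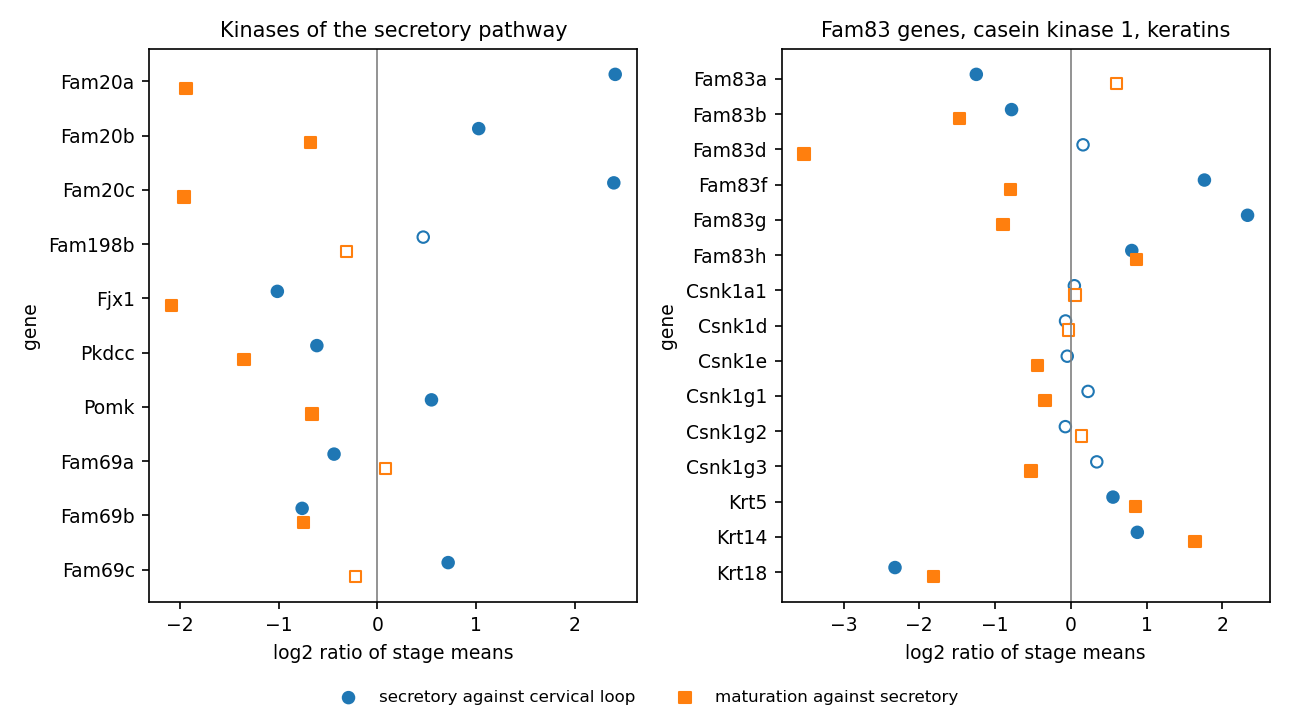
Log2 ratios of stage means for kinases of the secretory pathway (left) and for Fam83 genes, casein kinase 1 and keratins (right), in secretory against cervical loop (circles) and maturation against secretory (squares), for genes with a mean of at least 1 in some stage and filled where the FDR was under 0.05. Fam20a and Fam20c lie furthest right among the circles on the left panel, at 2.41 and 2.39, and Fam83h is the only Fam83 gene whose circle and square are both filled and above 0.

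Ambn, Enam and Amelx belong to the secreted calcium-binding phosphoproteins. The list counted here also holds Sparc and Sparcl1, relatives outside that family, which were both higher in maturation than in secretory cells. None of the other 10 measured in the list both rose and then fell with Ambn, Enam and Amelx. Of 13 measured under 24 listed symbols, 4 rose and 9 did not pass for secretory against cervical loop, and 5 rose, 4 fell and 4 did not pass for maturation against secretory. For maturation against cervical loop 6 rose, 1 fell and 6 did not pass. Median log2 ratios were 0.04, 0.54 and -0.21. Over all genes 16.5% were called higher and 25.2% lower, then 21.8% and 21.1%, then 24.1% and 33.7%. Without Ambn, Enam and Amelx, 1 of 10 rose at the first step and 0 fell, and 5 rose and 1 fell at the second, with medians of -0.50 and 0.91. The 1 that rose was Amtn (amelotin), which maturation ameloblasts secrete. It was 7.64-fold higher in secretory than in cervical loop cells (FDR = 0.0164 by the authors' deposited table), and 4.56-fold higher again in maturation than in secretory cells (FDR = 0.0223 by the authors' deposited table). Odam was 24.9-fold higher in maturation than secretory cells (FDR = 0.00661 by the authors' deposited table). Dspp, the dentin matrix gene, stood at 81.7 in the cervical loop, 22.2 in the secretory stage and at the floor in maturation, where it was lower than in secretory cells (FDR = 0.0467 by the authors' deposited table). Spp1 (osteopontin), at 749, 366 and 622.5, passed in no pair, with FDR between 0.289 and 0.897 by the authors' deposited table.

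Enam and Ambn are neighbours on rat chromosome 14 in GRCr8, with Amtn next after Ambn among protein-coding genes and Jchain next to Enam. Jchain, at 0.486, 0.443 and 0.438, passed in no pair, with FDR between 0.553 and 0.864 by the authors' deposited table. Utp3, beyond it, stood at 10.3, 9.74 and 9.14 and passed in none, with FDR between 0.164 and 0.536 by the authors' deposited table. Of the genes further out, Rufy3 was 1.15-fold higher in secretory than in cervical loop cells and 1.56-fold higher in maturation than secretory cells (FDR = 0.0116 and 0.000247 by the authors' deposited table). Grsf1 was 1.44-fold higher in secretory than in cervical loop cells and 1.24-fold lower in maturation than in secretory cells (FDR = 0.00826 and 0.043 by the authors' deposited table), the directions of Ambn and Enam at a far smaller fold. Amtn, next to Ambn, was highest in maturation. Oprpn, beyond Amtn, was at the floor in cervical loop and maturation cells and at 0.281 in secretory cells, and passed in no pair, with FDR between 0.0505 and 0.878 by the authors' deposited table. Neighbouring genes were chosen by position, after their values had been seen, whatever their level.

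Among 8609 genes with a mean of at least 10 in some stage, likeness was taken as the distance between log2 steps, secretory over cervical loop and maturation over secretory, with 1 added to each mean. Amelx lay nearest to Enam, at a distance of 0.0379, and no other gene lay within 0.2 of it. Amelx stood at 1152, 37121 and 217 over the stages, and per unit of Enam it was 2.75, 2.76 and 2.71. For Ambn the nearest was Mmp20 at 0.862, followed by AABR07031193.1 at 1.21. Mmp20 lay nearest to Fxyd4 (0.634) and Kcna3 (0.807), then to Ambn. Fxyd4 stood at 0.307, 28.6 and 0.237 over the stages, and Kcna3 at 1.56, 44.4 and 2.6. At such low means the added 1 shortens both steps, so these 2 distances depend on it. Fam20a and Fam20c had Fat2, a protocadherin of the Fat family, as the nearest gene (0.00708 and 0.0163), and each had the other in second place at 0.0232. Fat2 stood at 20.2, 108 and 27.9. Mfsd7, Tgfb1 and Nuak2 lay nearest to Tuft1 (0.0278, 0.045 and 0.0708), and Fndc5, Phlda3 and Ift57 to Fam83h (0.0167, 0.0549 and 0.0603). Mfsd7 (1.59, 3.33 and 11.6), Nuak2 (1.4, 3.14 and 11.7) and Fndc5 (3.51, 6.64 and 12.8) also had low means, where the added 1 shortens the steps. Tgfb1 stood higher, at 32.9, 56.3 and 173. With 3 stages a pattern has 2 free steps, so near matches describe the means and carry no test.

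**Figure D5:**
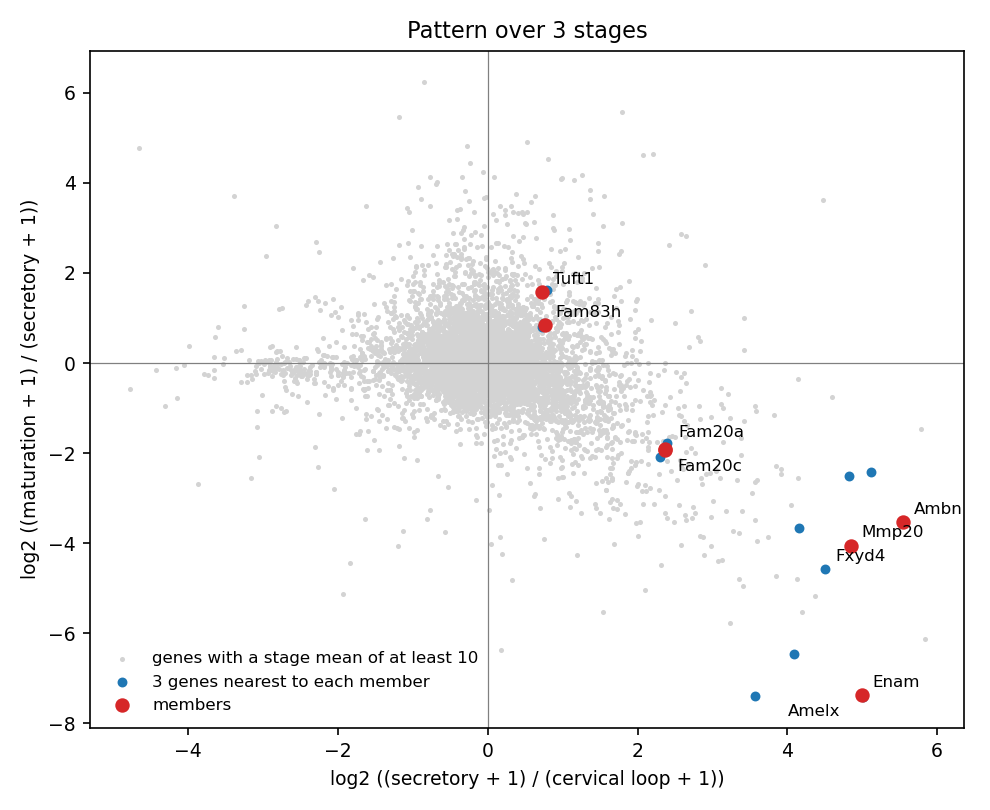
Each grey point is 1 of 8609 genes with a stage mean of at least 10, placed by its log2 step from cervical loop to secretory (x axis) and from secretory to maturation (y axis), with 1 added to each mean. Ambn, Enam and Mmp20 lie at the lower right among few genes, the Fam20a and Fam20c points coincide, Amelx is hidden under Enam, and Tuft1 and Fam83h lie at the upper right.

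A list of inherited enamel defect genes holds 6 of the 7. Of 29 measured under 35 listed symbols, 21 rose, 1 fell and 7 did not pass for secretory against cervical loop, with a median log2 ratio of 2.39. For maturation against secretory 9 rose, 15 fell and 5 did not pass, with a median of -0.56. Against the cervical loop 17 were higher in maturation, 3 lower and 9 did not pass, with a median of 0.84. Without those 6, 15 of 23 rose and 1 fell for secretory against cervical loop (median 1.76), beside the 16.5% and 25.2% of all genes given before. In maturation against secretory cells 8 of the 23 rose and 10 fell (median -0.47), and against the cervical loop 15 were higher and 3 lower (median 1.26). Over all genes 21.8% were called higher and 21.1% lower, then 24.1% and 33.7%, in these pairs. Lamb3, a laminin-332 chain gene, was 15.2-fold higher in secretory than in cervical loop cells (FDR = 0.000542 by the authors' deposited table). Relt, a receptor of the tumour necrosis factor family, stood at 92.1 in secretory cells, against 5.97 in the cervical loop (15.4-fold higher, FDR = 0.000769 by the authors' deposited table). It then stood at 5.4 in maturation, 17.1-fold lower than in secretory cells (FDR = 0.000557 by the authors' deposited table). Stim1, the calcium sensor of the endoplasmic reticulum, rose at each step, 3.52-fold and 2.64-fold (FDR = 0.000638 and 0.000829 by the authors' deposited table), in the order of Fam83h and Tuft1. Wdr72 also rose at each step, 2.97-fold and 3.29-fold (FDR = 0.00395 and 0.00215 by the authors' deposited table). Dlx3, a homeobox gene, stood at 103, 151 and 108 and passed in no pair, with FDR between 0.065 and 0.606 by the authors' deposited table.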

How the data were processed

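RNA-seq of 3 cell populations of the rat enamel organ was analysed from deposited tables, 1 sample per stage. The submitters' processing notes name STAR 2.5.3a, Partek and build rn6. How genes were filtered, values normalised and the model built is not given in the sources used here. Per the file headers, the authors deposited a least-squares mean per gene and stage (unit not stated, a few values below 0), the ratio of stage means, and p-values with a step-up FDR. The p-values were adjusted again by Benjamini-Hochberg over all 16516 genes of a pair (9949 transcripts in the isoform tables), which equalled the deposited FDR for genes to within rounding. A call needs an FDR under 0.05, and the higher stage mean gives its direction. Ratios were computed from the means, and none is given against a mean of 0.1 or less. The multiples of the stage means in the deposited total were 3.99, 3.99 and 5.01, near 4 cervical loop, 4 secretory and 5 maturation libraries, although the labels name only 1 library as left out. Depth per library is unknown beyond the reads stated in the labels, so no counting interval is given. The p-values measure only the spread between these libraries.

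Members, gene lists (13, of which 6 hold cell type markers) and tests were chosen with earlier results of these data known. The genes named were the 7, up to 4 of the smallest p-value in each direction and 3 of the highest mean that did not pass in each longer list, members of shorter lists with a mean of at least 1, neighbouring genes by position, and the 3 nearest patterns per gene, of which 1 is not reported here. Promoter windows came from RefSeq, with 6 of the 7 genes matched by symbol; Fam83h has no entry. Motifs were chosen after the data were seen. Bonferroni adjustment, a threshold of 0.01, a filter on means under 1, a pseudocount of 1, 2 rescalings and the deposited stage lists were tried as alternatives. The adjustment and the fit of error degrees of freedom were tested on data simulated with rats as blocks, not on the layout of the closest fit. Python 3.11.15, scipy 1.17.1 and pandas 2.3.3 were used.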

Additional observations from a re-analysis of the deposited data

How the results depend on the processing

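No paired analysis was possible because each stage is held as 1 mean with no library numbers, and for the same reason no library could be left out. With a pseudocount of 1, with both rescalings and with the stage lists, all 21 log2 ratios of the 7 genes kept their direction. These settings reuse the deposited p-values, so the side of the threshold could not change and significance was not tested again. A pseudocount added to both means cannot turn a direction. With a filter on means under 1 the FDR was adjusted again, and all 21 kept their side of the threshold. At a threshold of 0.01, 3 of 21 lost their call, and the count of the 7 genes lower in maturation than in secretory cells was 3 in place of 5. At that threshold the genes of all lists counted 12 lower (main count 23) for secretory against cervical loop, and 24 higher and 24 lower (37 and 42) for maturation against secretory. Bonferroni adjustment left 0 of the 7 genes for secretory against cervical loop and 0 higher and 0 lower for maturation against secretory, where Benjamini-Hochberg called 7, 2 and 5 and 7 of 7 had an unadjusted p under 0.05 in each pair. It left 1 of 3 for maturation against cervical loop, Tuft1, where 4 had an unadjusted p under 0.05. Over all lists it left 0 higher and 0 lower in both pairs with the secretory stage (83 and 91 of 135 genes with an unadjusted p under 0.05) and 3 higher and 3 lower for maturation against cervical loop. Of the 5 transcripts it left 0 for secretory against cervical loop (2 by unadjusted p), 0 for maturation against secretory (5 by unadjusted p) and 3 for maturation against cervical loop. Bonferroni is stricter by construction. With 5 or 7 error degrees of freedom the standardised differences of the 7 genes kept their direction, which the means set. Reads counted per gene are not held here, so what depth limits cannot be stated.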

Other observations

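Transcription factors and other regulators known from ameloblast gene control were counted as a list. Of 30 measured under 33 listed symbols, 5 rose, 9 fell and 16 did not pass for secretory against cervical loop, 6 rose, 7 fell and 17 did not pass for maturation against secretory, and 10 rose, 14 fell and 6 did not pass for maturation against cervical loop. Over all genes 16.5% were higher and 25.2% lower, then 21.8% and 21.1%, then 24.1% and 33.7%, and the counts of the first 2 pairs lie near these shares. Median log2 ratios were -0.19, -0.02 and -0.22. Satb1, a chromatin organiser, had the course of the matrix genes, at 114, 272 and 26.4 over the stages, 2.38-fold higher in secretory than in cervical loop cells and 10.3-fold lower in maturation than in secretory cells (FDR = 0.00579 and 0.000269 by the authors' deposited table). Sp6 (epiprofin) stood at 286 in secretory and 253 in cervical loop cells (FDR = 0.602 by the authors' deposited table) and was 4.89-fold lower in maturation than in secretory cells (FDR = 0.000752 by the authors' deposited table). Foxo1 rose at each step, 1.92-fold and 2.01-fold (FDR = 0.017 and 0.0075 by the authors' deposited table). Runx2 stood at 94.2 in secretory cells, against 107 in the cervical loop (FDR = 0.56 by the authors' deposited table), and was 2.14-fold higher in maturation than secretory cells (FDR = 0.00826 by the authors' deposited table). Nfya, a subunit of the factor that binds CCAAT, was 1.64-fold lower in secretory than in cervical loop cells (FDR = 0.00133 by the authors' deposited table). Other subunits of this factor did not all move with it. Nfyc stood at 28.8, 20.8 and 17.8 over the stages, but Nfyb stood at 17.8, 18.8 and 25.6.

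Genes that activate or inhibit matrix proteases were counted in the same way. Among 15 measured, 3 rose and 2 fell for secretory against cervical loop, 1 rose, 4 fell and 10 did not pass for maturation against secretory, and 4 rose, 5 fell and 6 did not pass for maturation against cervical loop, with median log2 ratios of -0.25, 0.35 and 0.11. The share that rose at the first step is near that of all genes, of which 16.5% were called higher and 25.2% lower. In the other pairs 21.8% and 21.1%, then 24.1% and 33.7%, of all genes were called higher and lower. Pcsk7, a proprotein convertase, had the directions of Mmp20, 1.75-fold higher in secretory than in cervical loop cells and 1.31-fold lower in maturation than in secretory cells (FDR = 0.000573 and 0.00326 by the authors' deposited table). Furin, of the same family, was 1.92-fold higher in secretory than in cervical loop cells (FDR = 0.00293 by the authors' deposited table). Timp3, an inhibitor of metalloproteinases, stood at 265 in maturation, against 24.1 in secretory cells (11.0-fold higher, FDR = 0.000381 by the authors' deposited table). Reck, a membrane inhibitor of metalloproteinases, was 2.18-fold lower in maturation than in secretory cells (FDR = 0.00345 by the authors' deposited table). Gelatinase gene Mmp2 stood at 346, 256 and 325 and passed in no pair, with FDR between 0.0569 and 0.662 by the authors' deposited table.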
